A study of Mus musculus with 6 samples.

Results

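The heat shock proteins and their DnaJ co-chaperones were examined in hearts of mice lacking *Trdn-as*, the long non-coding antisense transcript of the triadin gene *Trdn*. Members were the protein-coding genes named *Cryab* or with a symbol starting in Hspa, Hspb, Hspd, Hspe, Hsph, Hsp90 or Dnaj, which gave 70 of the 21776 genes in the table, 14970 of which are protein coding. Total RNA from 3 *Trdn-as* KO and 3 WT hearts was sequenced with strand information, 1 library a heart. The KO mice are homozygous for a polyadenylation cassette that Cas9 placed in exon 1 of *Trdn-as* in embryonic stem cells, and their chimeric founders were backcrossed to C57BL/6. An insertion made in this way is carried in every cell of the animal and is not limited to cardiomyocytes. The design text of the series speaks instead of deficiency in cardiomyocytes, and the methods of the study are followed here. Whole hearts are mixtures of cardiomyocytes, fibroblasts, endothelial cells and others, so fewer cells of a type and less RNA per cell cannot be told apart. The sources used here give no age beyond adult for these hearts and no sex.

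Heat shock proteins bind proteins that are unfolded, newly made or damaged. Hsp70 proteins hold and release such clients in a cycle driven by ATP, J-domain proteins (DnaJ) deliver the clients and start ATP hydrolysis, and Hsp110 and BAG proteins exchange the nucleotide. Hsp90 matures signalling proteins, the mitochondrial chaperonin pair folds imported proteins, and small heat shock proteins keep unfolding proteins soluble without ATP. The heart is rich in small heat shock proteins, which guard the contractile apparatus, and variants of CRYAB are a known cause of myopathy and cardiomyopathy. Heat shock factor 1 switches on the inducible members through heat shock elements, inverted repeats of the letters GAA in their promoters, while stress in the endoplasmic reticulum (ER) acts on the ER members through a separate element.

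The 5 promoters that follow show these elements for the inducible cytosolic genes, the chaperonin pair and the ER (RefSeq, GRCm38.p6, each 300 bases from 250 before the annotated start). Capitals mark GAANNTTC or TTCNNGAA, a pair of repeats, in the first 4. In *Hspa5* they mark the ER stress element, which is CCAAT and CCACG with 9 bases between them. N is any base, and both strands were searched.
*Hspa1b*, minus strand, chr17:34959189-34959488: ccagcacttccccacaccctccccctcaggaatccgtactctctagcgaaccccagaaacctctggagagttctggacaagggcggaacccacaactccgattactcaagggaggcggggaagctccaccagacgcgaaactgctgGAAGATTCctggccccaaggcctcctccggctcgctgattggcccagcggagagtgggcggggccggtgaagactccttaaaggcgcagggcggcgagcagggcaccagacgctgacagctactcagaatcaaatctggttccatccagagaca
*Hsph1*, minus strand, chr5:149636287-149636586: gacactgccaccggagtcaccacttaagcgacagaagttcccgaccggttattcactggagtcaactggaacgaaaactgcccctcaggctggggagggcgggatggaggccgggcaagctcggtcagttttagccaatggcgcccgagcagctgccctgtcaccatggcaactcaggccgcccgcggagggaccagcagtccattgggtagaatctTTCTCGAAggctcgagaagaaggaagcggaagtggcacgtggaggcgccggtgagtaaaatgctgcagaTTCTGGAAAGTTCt
*Hspb1*, plus strand, chr5:135887669-135887968: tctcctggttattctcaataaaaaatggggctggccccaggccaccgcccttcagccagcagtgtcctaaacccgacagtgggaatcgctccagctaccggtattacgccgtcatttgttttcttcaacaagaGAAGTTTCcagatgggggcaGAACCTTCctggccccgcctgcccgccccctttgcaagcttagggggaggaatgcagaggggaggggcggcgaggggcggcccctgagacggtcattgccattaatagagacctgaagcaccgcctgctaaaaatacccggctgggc
*Hspd1*, minus strand, chr1:55087883-55088182: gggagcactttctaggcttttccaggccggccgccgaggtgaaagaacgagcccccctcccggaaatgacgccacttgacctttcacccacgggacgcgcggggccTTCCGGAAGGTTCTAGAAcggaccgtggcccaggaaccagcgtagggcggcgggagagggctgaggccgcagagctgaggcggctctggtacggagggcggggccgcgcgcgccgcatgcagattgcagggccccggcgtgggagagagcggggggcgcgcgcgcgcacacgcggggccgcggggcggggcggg
*Hspa5*, plus strand, chr2:34771840-34772139: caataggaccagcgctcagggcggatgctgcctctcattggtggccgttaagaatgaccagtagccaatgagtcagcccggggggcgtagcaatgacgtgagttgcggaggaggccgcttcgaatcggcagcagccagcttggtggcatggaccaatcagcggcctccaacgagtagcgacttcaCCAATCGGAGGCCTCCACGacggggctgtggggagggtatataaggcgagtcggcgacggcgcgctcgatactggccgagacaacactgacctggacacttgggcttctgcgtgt

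Promoters were found for 55 of the 70 members. Those of *Cryab*, *Hspa8*, *Hsp90aa1* and *Hsp90ab1*, among others, were not found and so not searched. GAANNTTC or TTCNNGAA stood in 15.1% of all 32851 promoters and in 13 of the 55 member promoters (23.6%), among them 7 of 10 heat-inducible members, 4 of 6 muscle-enriched members and 1 of 7 ER members. The 7 heat-inducible members include *Hspa1a* and *Hspa1b*, whose promoters share 296 of 300 bases. A run of 3 such repeats, which contains the pair, stood in 0.603% of all promoters and in those of *Hsph1*, *Dnajb6*, *Hspd1* and *Hspe1*. *Hspd1* and *Hspe1* are transcribed away from each other and lie 107 bases apart, so the run of repeats in capitals is a single stretch of DNA, chr1:55088059-55088076, read from either side. The ER stress element, which was searched for after the data had been seen, stood in 0.119% of all promoters and in 3 of 7 ER members, *Hspa5*, *Hsp90b1* and *Dnajc3*. In *Hsp90b1* it occurs once on each strand. Whether a factor binds any of these matches was not measured.

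The values are normalised read counts, meaning reads on a gene's exons divided by a size factor of the library and rounded. Sums per library were 3.13 to 3.25 M, from an estimated 2.59 to 3.62 M counted reads, with WT replicate 1 the shallowest. *Trdn-as*, listed under a clone name, stood at 1, 0 and 1 in KO and 690, 773 and 688 in WT, as the genotype labels say. The cardiomyocyte markers that check the tissue were all present, and all 9 were lower in KO, at a median log2 fold change of -0.16. Unadjusted p was under 0.05 for 6 of the 9, and none passed an adjusted p of 0.05. Over all genes tested, 49.4% had a fold change below 0 and 5.74% an unadjusted p under 0.05. Of the 819 genes in the range of the 16 members highest per exonic kilobase, 84.7% lay below 0, with a median of -0.07. Of those 819, 7.33% had an unadjusted p under 0.05. The markers were not compared with genes of their own level. Their summed values were 24395, 25548 and 26129 in KO and 31415, 28083 and 25414 in WT, so WT replicate 1 stood highest and WT replicate 3 lay among the KO hearts. Markers of fibroblasts, smooth muscle and macrophages had no gene at an unadjusted p under 0.05, and endothelial markers had 1 of 6, *Vwf*. All 6 endothelial markers were higher in KO, at a median log2 fold change of 0.03. *Vwf* stood at 446, 576 and 491 in KO and 365, 388 and 441 in WT, at an adjusted limma p of 0.551. Of the skeletal muscle markers, *Acta1*, which the heart also expresses, stood at 386, 342 and 334 in KO and 541, 406 and 567 in WT, at an unadjusted p of 6.44e-05 and an adjusted limma p of 0.148. Blood markers were lower in 5 of 5 with 0 at an unadjusted p under 0.05, and summed to 164 to 304 in KO and 151 to 423 in WT. Immediate early genes, which respond within minutes to handling, had 4 of 6 tested higher and 2 lower in KO. Of these, 2 were at an unadjusted p under 0.05, *Jun* (332, 356 and 315 against 284, 272 and 247, adjusted p 0.518) and *Fos* (44, 19 and 54 against 10, 23 and 15, overlapping, adjusted p 0.689). Clock genes had 2 of 7 at that level, *Per3* and *Dbp*, each with the higher mean in KO. Their part in the results that follow was not tested.

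The test was limma on log2(value + 1), and 64 of the 70 members reached the mean of 10 that it required. None of the 64 passed an adjusted p of 0.05, and the lowest adjusted p among them was 0.689. Over all 13753 genes tested, 4 passed (0.0291%). At an unadjusted p under 0.05 stood 11 members (17.2%), against 790 of all genes (5.74%), and all 11 were lower in KO. Over all genes 2.8% were lower and 2.94% higher at that level. The 11 were *Hspb1*, *Hsp90aa1*, *Hsph1*, *Hspa5*, *Cryab*, *Hspa8*, *Hsp90ab1*, *Hsp90b1*, *Hspa12b*, *Hspbp1* and *Dnajb2*. Values of KO and WT did not overlap for 12 members (18.8%), against 9.07% of all genes, with KO below WT in 9 (all genes 4.44%) and above it in 3 (all genes 4.64%). A log2 fold change below 0 was fitted for 43 members (67.2%) and for 49.4% of all genes. With libraries scaled to equal totals, or with voom, it was 35 members (54.7%), against 41.8% and 41.5% of all genes. Without the mean-variance trend of the fit, 4 members were at an unadjusted p under 0.05 (6.25%, against 5.67% of all genes), of which *Hspb1*, *Hsp90aa1* and *Hspbp1* were lower and *Hspb11* higher in KO. The 64 fold changes had a log2 median of -0.05, beside 0.00 for all genes.

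The shares of lower genes and of genes at an unadjusted p under 0.05 were larger among heat shock proteins than among J-domain proteins. Among 25 heat shock proteins tested, 20 were lower in KO, 9 were at an unadjusted p under 0.05 and the median log2 fold change was -0.10. Among 37 J-domain proteins, 22 were lower, 1 was at that level and the median was -0.01. Summed over all 27 heat shock proteins, the values were 13130, 12581 and 12973 in KO and 14821, 13925 and 13823 in WT. Every KO heart lay below every WT heart, and the KO mean was 0.909 of the WT mean. The 41 J-domain proteins summed to 10670, 10031 and 10270 in KO and 10572, 10519 and 10197 in WT, overlapping groups with a ratio of 0.990. The difference between the classes was not tested. Nor were the classes matched for level: most of the 16 members highest per exonic kilobase were heat shock proteins. Of all 819 genes in that range of level, 84.7% were lower in KO. For 57 of the 64 members the 95% interval of the difference, from the limma fit, lay within a 1.5-fold change in either direction. The exceptions were *Hsph1*, *Hspb1*, *Hspb3*, *Hspb11*, *Hspbp1*, *Dnajc17* and *Dnajc24*.

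**Figure D1:**
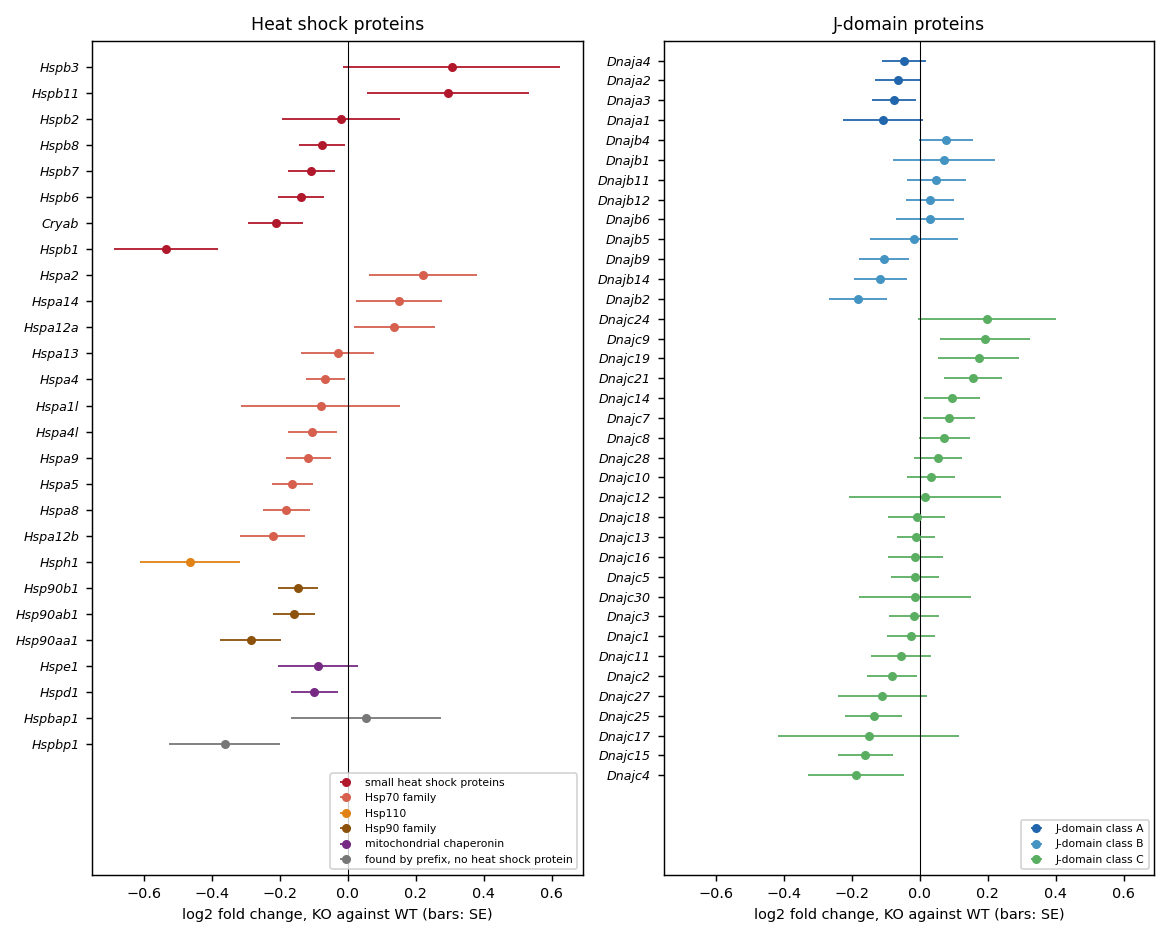
Log2 fold change of KO against WT for the 64 members tested, 1 row a gene, coloured by class, with bars for the SE of the limma fit (3 KO and 3 WT hearts). Of the heat shock proteins 20 of 25 lie left of 0, with *Hspb1* and *Hsph1* farthest out, while the J-domain proteins spread to either side.

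Small heat shock proteins were led by *Hspb1* (Hsp27), a stress-inducible protein that binds actin and unfolding proteins. *Hspb1* (chr5:135887919-135889563) stood at 54, 51 and 45 in KO and at 69, 67 and 83 in WT. All KO hearts were below all WT hearts, and the KO mean was 0.685 of the WT mean (SD 4.58 in KO and 8.72 in WT, n = 3). The log2 fold change was -0.53 (SE 0.15), with an unadjusted limma p of 0.00237 and an adjusted p of 0.689. It was the lowest p of all members, and it stayed under 0.05 unadjusted without any 1 of the 6 hearts.

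*Cryab* (αB-crystallin), which binds desmin and titin in cardiomyocytes, stood at 422, 417 and 437 in KO and at 545, 517 and 425 in WT. The WT range was wide and its lowest heart, replicate 3, lay inside the KO range. The log2 fold change of -0.21 (SE 0.08) had an unadjusted p of 0.0162. It became 0.118 on leaving out WT replicate 1, 0.0801 on leaving out WT replicate 2 and 0.000229 on leaving out WT replicate 3. The log2 fold change itself was -0.14 without WT replicate 1 and -0.319 without WT replicate 3. *Hspb6* (Hsp20), a partner of *Cryab* that is phosphorylated on β-adrenergic signalling, stood at 663, 614 and 640 against 766, 703 and 645. *Hspb7*, which binds filamin C at the Z-disc, stood at 965, 900 and 974 against 1128, 1023 and 917. For *Hspb8*, which works with BAG3 in the autophagic removal of damaged filamin, the values were 677, 675 and 728 against 811, 692 and 695. In each of these WT replicate 1 was the highest heart and the groups overlapped. The log2 fold changes were -0.14, -0.11 and -0.08, with unadjusted p of 0.0559, 0.134 and 0.278. Without WT replicate 1 they shrank to -0.076, -0.034 and -0.001. Without WT replicate 3 they were -0.20 for *Hspb6* (p 0.00724), -0.184 for *Hspb7* (p 0.00878) and -0.112 for *Hspb8* (p 0.135). *Hspb6* also had p 0.0412 without KO replicate 1 and 0.0462 with a replicate block.

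*Hspb2*, the muscle gene that shares a promoter region with *Cryab*, stood at 45, 42 and 53 in KO and 50, 41 and 51 in WT. The annotated genes overlap on opposite strands, and their log2 fold changes were -0.02 for *Hspb2* and -0.21 for *Cryab*. *Hspb3*, which forms complexes with *Hspb2*, was low at 14, 16 and 11 against 14, 8 and 11. *Hspb11* stood at 23, 23 and 22 against 20, 17 and 18, so that KO lay above WT. The fitted log2 difference of 0.29 (SE 0.24) had an unadjusted p of 0.232. It carries the symbol of a small heat shock protein but is known as IFT25, a subunit of the transport complex of cilia.

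**Figure D2:**
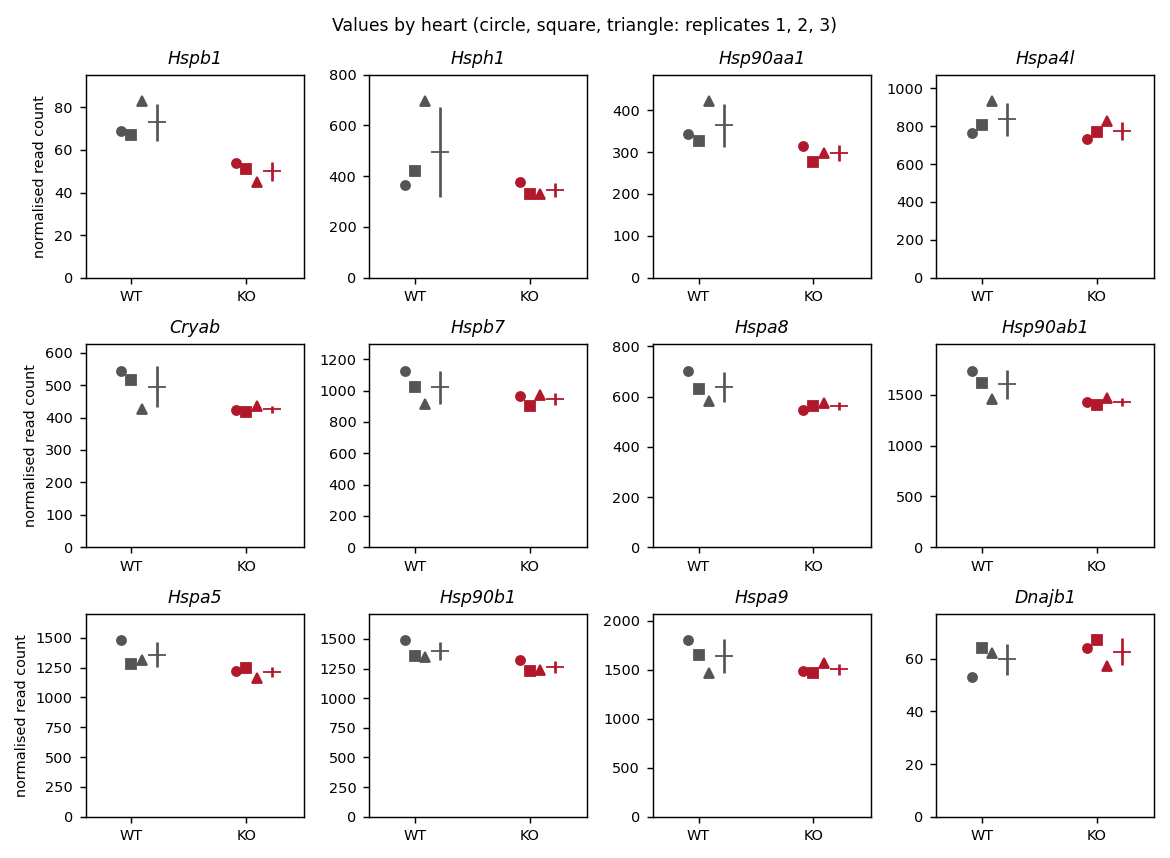
Normalised read count of 12 members in each of the 6 hearts, each panel from 0, with the mean and SD of 3 beside the points. *Hspb1* has no overlap between groups, *Hsph1* and *Hsp90aa1* have a high WT replicate 3 (triangle), and *Cryab*, *Hspb7*, *Hspa8*, *Hsp90ab1* and *Hspa9* have a high WT replicate 1 (circle).

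The Hsp70 family had 13 members, 11 of them tested, with 8 lower in KO and 3 at an unadjusted p under 0.05. *Hspa8* (Hsc70), the constitutive cytosolic Hsp70, stood at 545, 564 and 576 in KO and at 704, 629 and 583 in WT. The groups did not overlap, though the highest KO and the lowest WT heart were close. The log2 fold change was -0.18 (SE 0.07) at an unadjusted p of 0.0179, and p was 0.126 without WT replicate 1 and 0.0544 without KO replicate 1. Without WT replicate 1 the log2 fold change of *Hspa8* was -0.109. *Hspa5* (BiP), the Hsp70 of the ER and a standard marker of ER stress, stood at 1218, 1248 and 1166 against 1480, 1282 and 1312, again with no overlap. Its log2 fold change was -0.16 (SE 0.06) at an unadjusted p of 0.0150, and p was 0.0914 without WT replicate 1 and 0.0760 without KO replicate 3. Without WT replicate 1 the log2 fold change of *Hspa5* was -0.1. *Hspa9* (mortalin), the Hsp70 of the mitochondrial matrix, stood at 1489, 1464 and 1569 against 1804, 1651 and 1463. These overlapped, with WT replicate 3 the lowest heart of all, and p was 0.0941. On the log2 scale its difference of -0.12 became -0.045 without WT replicate 1 and -0.196 (p 0.00275) without WT replicate 3.

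The most inducible genes of the family were barely expressed. *Hspa1a* stood at 4, 5 and 9 in KO and 9, 4 and 11 in WT, and *Hspa1b* at 7, 8 and 5 against 6, 2 and 4. Both fell below the filter and overlapped between groups. They are near-identical neighbours on chromosome 17, whose promoters share 296 of 300 bases, and reads mapping to more than 1 place were discarded, so their values are uncertain and can be too low. *Hspa1l*, the next gene along, which was named for its position after its values were seen, stood at 24, 32 and 21 against 24, 25 and 32.

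*Hspa2*, best known from the testis, stood at 52, 66 and 60 in KO and 53, 46 and 53 in WT, a log2 difference of 0.22 (SE 0.16) at an unadjusted p of 0.182. *Hspa12b*, an endothelial Hsp70-like protein, stood at 252, 228 and 192 against 245, 278 and 257. Its log2 fold change was -0.22 (SE 0.10) at an unadjusted p of 0.0321, which became 0.250 without KO replicate 3 and 0.142 without WT replicate 2. *Hspa14*, which is part of the ribosome-associated complex and was chosen after its values were seen, stood at 87, 79 and 83 against 72, 75 and 77. Here KO lay above WT, at an unadjusted p of 0.252.

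*Hsph1* (Hsp105), the inducible Hsp110 that exchanges nucleotide on Hsp70, stood at 376, 329 and 328 in KO and at 365, 421 and 696 in WT. WT replicate 3 was far above the other hearts, and WT replicate 1 lay within the KO range. The log2 fold change was -0.47 (SE 0.15) at an unadjusted p of 0.00490. Without WT replicate 3 it was -0.19 at an unadjusted p of 0.0424. *Hspa4*, another Hsp110 protein, stood at 978, 935 and 968 against 1064, 972 and 982, with p 0.268. *Hspa4l*, a related gene chosen after its values were seen, was also highest in WT replicate 3, at 732, 768 and 826 against 766, 808 and 933. By their symbols *Hspa4* and *Hspa4l* are included in the counts of the Hsp70 family above.

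Each of the 3 Hsp90 genes was lower in KO, with an unadjusted p under 0.05. *Hsp90aa1*, the inducible cytosolic form, stood at 315, 277 and 299 in KO and at 343, 327 and 422 in WT, with no overlap and WT replicate 3 the highest. Its log2 fold change was -0.29 (SE 0.09) at an unadjusted p of 0.00473 and an adjusted p of 0.762. Without WT replicate 3 the log2 fold change was -0.18 and the unadjusted p 0.0502. *Hsp90ab1*, the constitutive form and the highest member per exonic kilobase, stood at 1427, 1396 and 1473 against 1738, 1611 and 1458. WT replicate 3 lay within the KO range, and the log2 fold change was -0.16 (SE 0.06) at p 0.0189. *Hsp90b1* (Grp94), the form of the ER, stood at 1326, 1229 and 1235 against 1490, 1358 and 1348, with no overlap, and its log2 difference of -0.15 (SE 0.06) had p 0.0213. Without WT replicate 1 the unadjusted p was 0.110 for *Hsp90ab1*, at a log2 fold change of -0.098, and 0.0953 for *Hsp90b1*, at -0.1. It was also above 0.05 without KO replicate 2 (0.0650) or WT replicate 2 (0.0643) for *Hsp90ab1*, and without KO replicate 2 (0.0735) or KO replicate 3 (0.0809) for *Hsp90b1*. Summed, the Hsp90 genes stood at 3068, 2902 and 3007 in KO and 3571, 3296 and 3228 in WT.

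The mitochondrial chaperonin pair, which forms the folding chamber of the matrix and its lid, overlapped between the groups. *Hspd1* (Hsp60) stood at 715, 596 and 684 in KO and 721, 725 and 685 in WT. *Hspe1* (Hsp10) stood at 132, 99 and 111 against 122, 116 and 123. The log2 fold changes of the pair were -0.10 (95% interval -0.24 to 0.05) and -0.09 (95% interval -0.33 to 0.16). KO replicate 2 was the lowest heart for either gene.

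The 4 J-domain proteins of class A, which have the domain layout of bacterial DnaJ, were all slightly lower in KO. *Dnaja1*, a heat-inducible partner of *Hspa8*, stood at 116, 93 and 101 against 112, 114 and 107. *Dnaja3* (Tid1), the mitochondrial member, loss of which causes cardiomyopathy in mice, stood at 520, 507 and 541 against 587, 546 and 521. *Dnaja4* stood at 480, 448 and 462 against 485, 481 and 468. The lowest unadjusted p of these 3 was 0.265, for *Dnaja3*.

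Class B held 10 genes, 9 of them tested, with 5 higher and 4 lower in KO. *Dnajb1* (Hsp40), the most inducible J-domain protein, stood at 64, 67 and 57 in KO and 53, 64 and 62 in WT. The log2 fold change was 0.07 (95% interval -0.24 to 0.38), of the opposite sign to those of *Hsph1* and *Hsp90aa1*, and its difference from theirs was not tested. It was -0.01 without WT replicate 1. *Dnajb4* stood at 369, 329 and 329 against 345, 334 and 295. *Dnajb5*, a muscle-enriched partner of class II histone deacetylases, stood at 292, 187 and 191 against 241, 229 and 196, with KO replicate 1 far above the other KO hearts. *Dnajb6*, variants of which cause limb-girdle muscular dystrophy, stood at 134, 142 and 134 against 137, 139 and 126. *Dnajb2*, a neuronal and muscle J-domain protein chosen after its values were seen, stood at 236, 207 and 214 against 238, 243 and 264. The groups of *Dnajb2* did not overlap, and its log2 fold change of -0.18 (SE 0.08) had an unadjusted p of 0.0446. That p was above 0.05 without KO replicate 2 or 3 or WT replicate 3 (0.111 to 0.157) or WT replicate 2 (0.0662). With all 6 libraries it was also above 0.05 with voom (0.0879), equal totals (0.0808), a replicate block (0.0527) or no mean-variance trend (0.0810).

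In the ER, *Dnajb9* (ERdj4), a repressor of the stress sensor IRE1 and a target of its pathway, stood at 277, 268 and 284 in KO and 294, 299 and 299 in WT. The groups did not overlap, but the log2 fold change of -0.11 (SE 0.07) had an unadjusted p of 0.165. *Dnajb11* (ERdj3), which hands clients to BiP, stood at 201, 191 and 208 against 182, 202 and 196. *Dnajc3* (p58IPK), an ER co-chaperone that shares the element shown for *Hspa5*, stood at 434, 432 and 421 against 477, 396 and 432. Of the 8 ER members, 6 were lower in KO, 2 of them (*Hspa5* and *Hsp90b1*) at an unadjusted p under 0.05, and their median log2 fold change was -0.03.

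Class C, the largest and most varied class, had 27 genes, 24 of them tested, and none at an unadjusted p under 0.05 with limma-trend on the deposited scale and all 6 libraries. KO was higher for 10 and lower for 14, and the class median was -0.01 on the log2 scale. *Dnajc5* (cysteine string protein), of secretory vesicles, stood at 366, 410 and 416 in KO and 401, 392 and 409 in WT. *Dnajc19*, a subunit of the mitochondrial import motor and the gene of dilated cardiomyopathy with ataxia, stood at 128, 118 and 126 against 98, 131 and 103. *Dnajc9*, a histone chaperone, stood at 88, 77 and 80 against 69, 76 and 69, with KO above WT at an unadjusted p of 0.160. *Dnajc24*, of the diphthamide pathway, stood at 41, 59 and 51 against 33, 43 and 57. *Dnajc15* and *Dnajc21* were chosen after their values were seen. *Dnajc15*, an inner-membrane relative of *Dnajc19*, stood at 223, 232 and 221 against 268, 246 and 242, with no overlap and p 0.0617. *Dnajc21*, a ribosome biogenesis factor, stood at 382, 307 and 336 against 296, 333 and 288, with p 0.0834, the lowest of the class after *Dnajc15*. With voom and with equal totals *Dnajc21* was higher in KO at an unadjusted p of 0.0497 and 0.0495, and at 0.0198 without KO replicate 2 and 0.0369 without WT replicate 2. Leaving out WT replicate 3 gave *Dnajc15* p 0.0482, and leaving out WT replicate 2 gave *Dnajc19* p 0.0282.

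Among the genes found by prefix alone, *Hspbp1*, which is no heat shock protein but a nucleotide exchange factor that restrains Hsp70, stood at 48, 40 and 49 in KO and 52, 61 and 64 in WT. The groups did not overlap. Its log2 fold change was -0.36 (SE 0.16) at an unadjusted p of 0.0392, which was above 0.05 without KO replicate 2 (0.141), WT replicate 2 (0.101) or WT replicate 3 (0.123). The 6 members below the filter were *Hspa1a*, *Hspa1b*, *Dnajb3*, *Dnajc22*, *Dnajc5b* and *Dnajc6*, and the last 4 reached at most 5 in any heart.

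**Figure D3:**
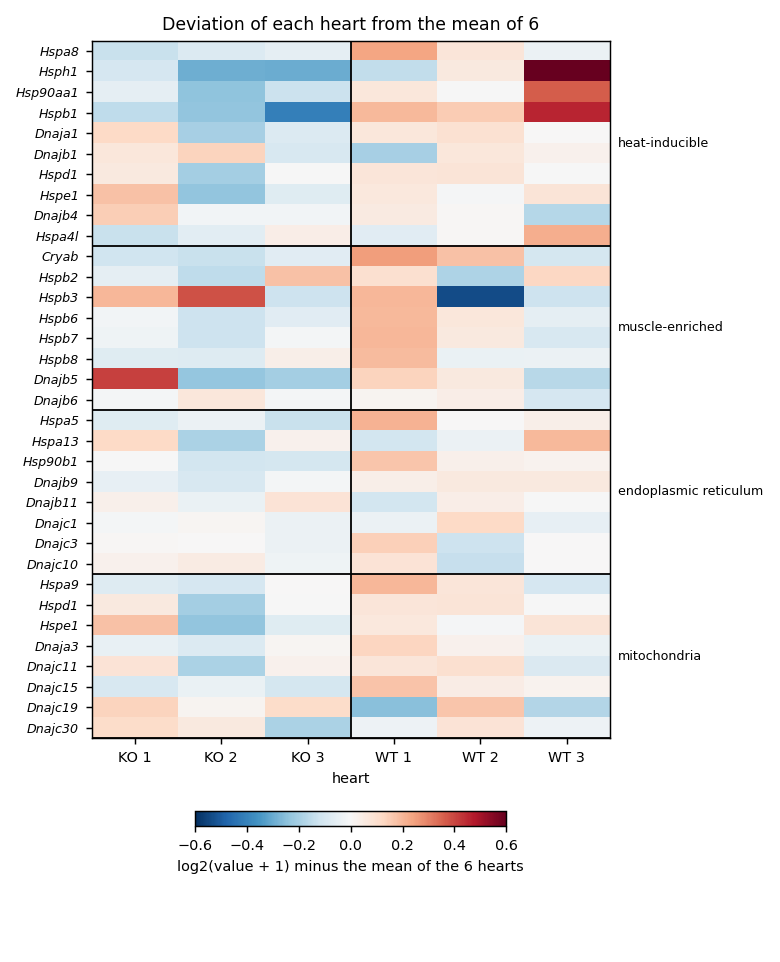
Deviation of each heart from the mean of 6, as log2(value + 1), for the tested genes of 4 role lists, with red for above and blue for below and the line dividing KO from WT. *Hsph1*, *Hsp90aa1* and *Hspb1* are highest in WT 3, while *Cryab*, *Hspb6*, *Hspb7*, *Hspb8*, *Hspa5*, *Hspa8* and *Hspa9* are highest in WT 1.

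The heat-inducible list had 12 genes, *Hspa1a*, *Hspa1b*, *Hspa8*, *Hsph1*, *Hsp90aa1*, *Hspb1*, *Dnaja1*, *Dnajb1*, *Hspd1*, *Hspe1*, *Dnajb4* and *Hspa4l*, of which several, *Hspa8* above all, are also made without stress. Of 10 tested, 8 were lower in KO and 4 were at an unadjusted p under 0.05. *Hspb1*, *Hsph1* and *Hsp90aa1* of these were highest in WT replicate 3, and *Hspa8* in WT replicate 1. Its summed values were 3429, 3186 and 3370 in KO and 3615, 3611 and 4004 in WT, with no overlap and WT replicate 3 the highest, where *Hsph1* alone gave 696 against 365 and 421. By the median deviation of its 10 tested genes from the mean of 6 hearts, WT replicate 3 was the lowest WT heart, at 0.0649, 0.0642 and 0.0494 on the log2 scale in WT. The muscle-enriched list of 8 had 6 lower and 1 at that level, *Cryab*, and summed to 3212, 2993 and 3168 against 3692, 3352 and 3066, so WT replicate 3 lay among the KO hearts. The mitochondrial list of 8 had 7 lower and 0 at that level, and summed to 3531, 3291 and 3556 against 3917, 3741 and 3426. KO replicate 2 was the lowest heart for 25 of the 64 members, while it was lowest for 18.8% of all genes.

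The order of WT hearts in the muscle-enriched list was that of the cardiomyocyte markers, so the lists were also expressed per 1000 reads of the 9 markers, a ratio chosen after the data had been seen. The muscle-enriched list then stood at 132, 117 and 121 in KO and 118, 119 and 121 in WT, and the SD of WT was 1.57 (n = 3). The mean was 123 in KO and 119 in WT, a ratio of 1.03. The heat-inducible list stood at 141, 125 and 129 in KO and 115, 129 and 158 in WT, so its groups overlapped on this scale, at a ratio of 0.983. The ratio was 1.04 for the ER list and for the mitochondrial list. *Cryab* stood at 17.3, 16.3 and 16.7 against 17.4, 18.4 and 16.7 on this scale, a ratio of 0.959, and *Hsp90ab1* and *Hspa8* had ratios of 0.997 and 0.981. *Hsp90aa1* stood at 12.9, 10.8 and 11.4 against 10.9, 11.6 and 16.6, a ratio of 0.899, and *Hspa5* had a ratio of 0.993. Both overlapped on this scale, with WT replicate 3 the only WT heart above every KO heart. *Hspb1* and *Hsph1* had ratios of 0.756 each. *Hsph1* stood at 15.4, 12.9 and 12.6 in KO and from 11.6 (WT replicate 1, the lowest heart of all) to 27.4 (WT replicate 3) in WT. The groups overlapped, and WT replicate 3 was the only WT heart above every KO heart. The KO and WT values of *Hspb1* overlapped on this scale, since KO replicate 1 was above WT replicate 1, and WT replicate 3 was the highest at 3.27. Why the markers were lower was not tested, and they were not compared with genes of their own level.

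The level of a gene also went with its difference. Split by mean normalised reads per exonic kilobase into 4 classes of 16 members, the highest class (131 to 506 per kilobase) had a median log2 fold change of -0.10, with 14 lower in KO and 5 at an unadjusted p under 0.05. All 819 genes in that range had a median of -0.07, and 84.7% of them were lower, with 7.33% at that level. The second class (57.4 to 112 per kilobase) had a median of -0.05, with 11 lower and 4 at that level, beside -0.01, 54.3% lower and 4.31% at that level over 2017 genes. The lower 2 classes had medians of -0.01 each and 1 member each at that level, while all genes in their ranges had medians of 0.01 and 0.02, with 5.55% and 5.83% at that level. *Hspb1*, *Hsph1* and *Hsp90aa1* belong to the second class, whereas *Cryab*, *Hspa5*, *Hspa8*, *Hsp90ab1* and *Hsp90b1* belong to the highest.

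**Figure D4:**
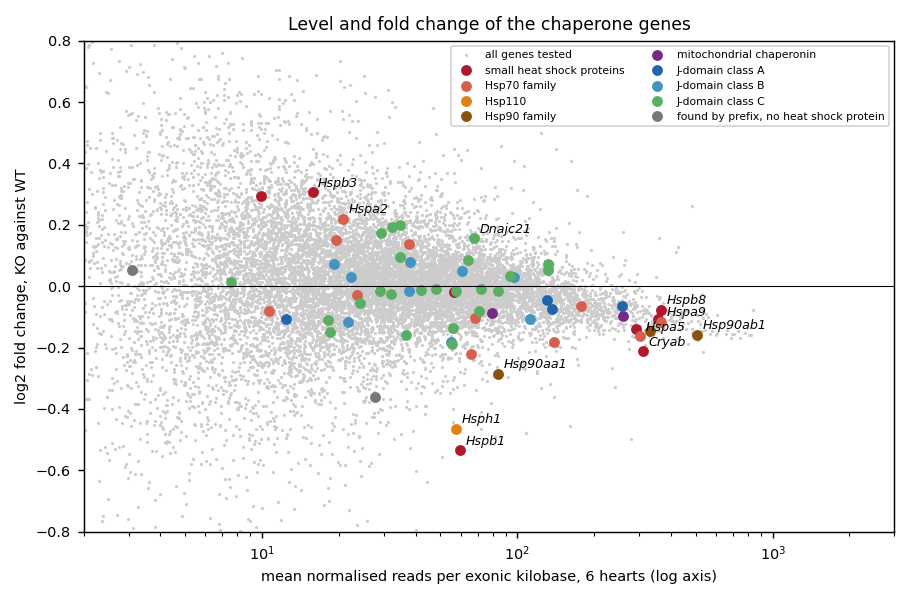
Mean normalised reads per exonic kilobase over 6 hearts (log axis) against the log2 fold change of KO against WT, with members in colour by class over all genes tested in grey (fold changes beyond 0.8 are outside the frame). At the right, where *Hsp90ab1*, *Hspb8* and *Hspa9* lie, the grey cloud itself sits below 0, while *Hspb1*, *Hsph1* and *Hsp90aa1* lie below it at a middle level.

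Genes that work with the chaperones were taken from a list of 53, all tested. None passed an adjusted p of 0.05 and 3 stood at an unadjusted p under 0.05 (5.66%), near the 5.74% of all genes. This count depended on the libraries. It was 1 without WT replicate 1 (all genes 4.4%), 7 without KO replicate 1 (all genes 8.24%) and 8 without WT replicate 3 (all genes 8.60%). Values were lower in KO for 39 of the 53 (73.6%), at a median of -0.05 on the log2 scale, beside 49.4% and 0.00 over all genes. The partners were not compared with genes of their own level. *Hsf1*, the main heat shock factor, stood at 84, 105 and 84 in KO and 87, 98 and 111 in WT, a log2 difference of -0.12 (SE 0.13) at p 0.391. The difference of *Hsf1* was -0.223 without KO replicate 2 and -0.029 without WT replicate 3. *Hsf2*, its relative, stood at 185, 148 and 158 against 201, 182 and 191. The groups of *Hsf2* overlapped through KO replicate 1, and its log2 fold change of -0.23 (SE 0.10) had an unadjusted p of 0.0309, which was 0.0542 to 0.143 without KO replicate 2 or 3 or WT replicate 1 or 3. Among Hsp70 partners, *Bag4* (SODD), a BAG-domain protein, was higher in KO at 129, 126 and 129 against 102, 120 and 95, a log2 difference of 0.28 (SE 0.11) at p 0.0226, which was 0.0544 to 0.101 without KO replicate 3 or WT replicate 1 or 3. *Bag3*, the partner of *Hspb8* in muscle, stood at 663, 613 and 625 against 768, 691 and 589, with p 0.219. Its log2 fold change of -0.10 became -0.202 (p 0.00811) without WT replicate 3 and -0.011 without WT replicate 1. *Grpel2*, a nucleotide exchange factor of *Hspa9*, stood at 127, 121 and 128 against 153, 151 and 133, with no overlap and p 0.0504.

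Of the 16 ER stress genes 13 were lower in KO (81.25%, against 49.4% of all genes). *Sdf2l1*, an ER protein that works with *Dnajb11* and is induced by ER stress, stood at 21, 19 and 16 in KO and 28, 28 and 44 in WT, with no overlap. The log2 fold change was -0.78 (SE 0.24) at an unadjusted p of 0.00445 and an adjusted p of 0.762, and it was -0.57 without WT replicate 3. *Creld2*, another gene induced by ER stress, went the other way, at 46, 48 and 52 against 39, 40 and 41, with p 0.117. Without the mean-variance trend the p of *Creld2* was 0.0119. The cytosolic chaperonin had 7 of 8 subunits lower and 0 at an unadjusted p under 0.05, and the Hsp90 partners had 6 of 9 lower and 0 at that level. *Fkbp5*, a glucocorticoid-induced Hsp90 partner, stood at 94, 95 and 64 against 65, 67 and 86. Its log2 fold change was 0.20 at an unadjusted p of 0.230. It became 0.386 (p 0.026) without KO replicate 3 and 0.105 (p 0.573) without KO replicate 2.

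**Figure D5:**
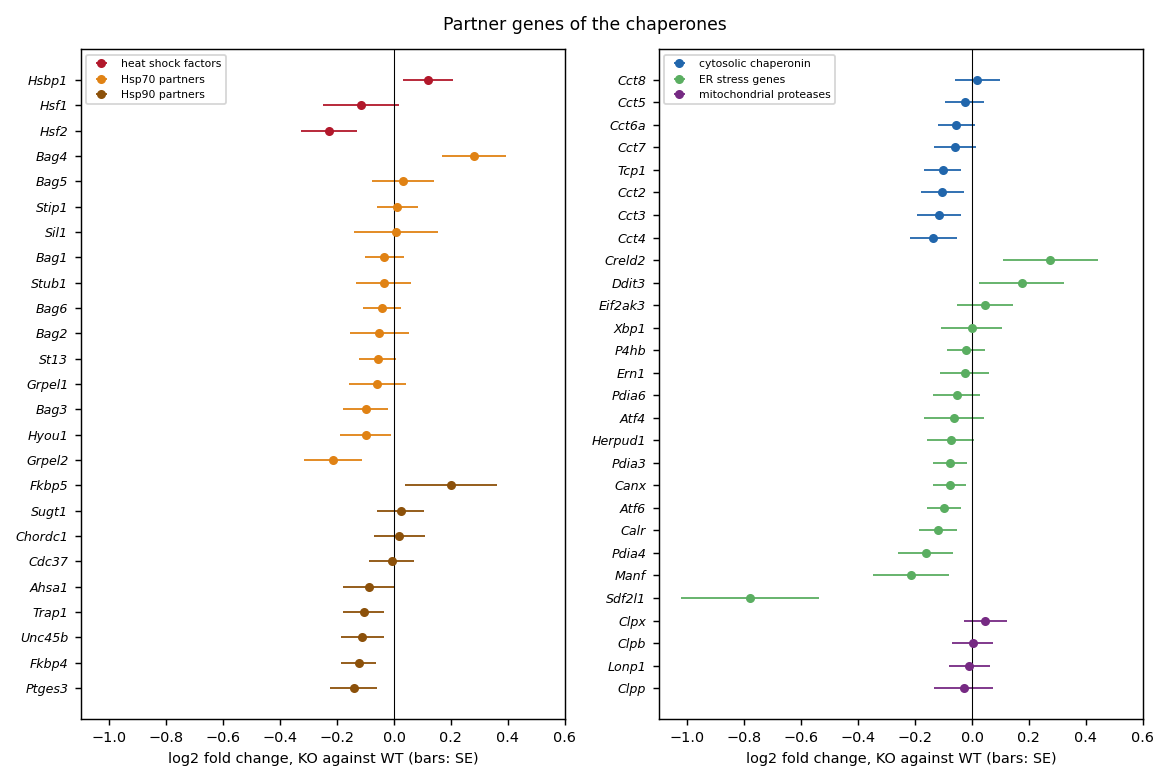
Log2 fold change of KO against WT for 53 partner genes, coloured by list, with bars for the SE of the limma fit (3 KO and 3 WT hearts). *Sdf2l1* lies farthest left at -0.78, and *Bag4* and *Creld2* lie farthest right.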

How the data were processed

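Whole-heart total RNA of 3 *Trdn-as* KO and 3 WT mice was sequenced with single-end reads. Per the methods of the study, the authors trimmed reads (Trimmomatic 0.39), aligned them to GRCm38 (STAR 2.6.1d), removed duplicates (Picard 2.21.1) and multi-mapping, ribosomal and mitochondrial reads, and counted exonic reads by strand (featureCounts 1.6.5), leaving out reads on several genes. The deposited score is this count, divided by the authors by a DESeq2 1.18.1 size factor and rounded. All 6 value columns were used.

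Since the table holds no raw counts, limma 3.58.1 (R 4.3.3; mean-variance trend, two-sided) was fitted to log2(value + 1) of 13753 genes with a mean of at least 10, with Benjamini-Hochberg adjustment over all of them and a threshold of 0.05. P-values rest on a variance that blends a gene's own spread between these libraries with the trend over all genes. The trend had a median of 15.4 prior degrees of freedom, against 4 from the gene's own spread. Members, lists and tests were chosen with earlier results of these data known. Per-library values are given for a chosen set of members and for the 5 with the largest fold change in each direction. Members named beyond these are marked in the text, and partner genes were named after their values were seen. Exon lengths came from GENCODE M21, as the union of exons. Tested on simulated data over at least 13759 genes, the fit called between 44.0 and 53.6% of the 1.5-fold differences put in, and between 83.2 and 88.7% of the 2-fold ones. False calls made up between 2.19 and 7.80% of its calls. The simulation gave all genes the same spread beyond counting noise, so these rates need not hold for the real hearts. It put in no difference smaller than 1.5-fold. Alternatives were limma-voom, another pseudocount (0.1), filter, scaling and variance model, a replicate block, and leaving out each library.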

Additional observations from a re-analysis of the deposited data

How the results depend on the processing

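No member and no partner gene passed an adjusted p of 0.05 in limma under any alternative run. At an unadjusted p under 0.05 stood 4 of 64 members without the mean-variance trend (6.25%, against 5.67% of all genes; 3 lower and 1 higher), and 9 to 11 under the other fits of all 6 libraries. Leaving out 1 library gave 7 (without WT replicate 1, 10.9% against 4.36% of all genes) to 13 members (without KO replicate 1, 20.3% against 8.24%), and 32 genes of all then passed the adjusted threshold without KO replicate 1. With voom and with equal totals 8 were lower and 1, *Dnajc21*, higher, and 35 of 64 members in place of 43 had a fold change below 0. In both fits *Dnajb2*, *Hspa12b* and *Hspbp1* were above 0.05 (0.0552 to 0.0879). Among members above 0.05 with all libraries, *Hspd1* (p 0.0493) and *Dnajb5* (p 0.0383) came under it without KO replicate 1 and *Hspa4l* (p 0.0424) without WT replicate 1. The median over members kept its sign, from -0.07 to -0.03. Deviations of same-numbered libraries from their group means correlated at 0.0476, -0.068 and -0.0278. Other pairs of libraries were not compared, so these correlations cannot settle whether replicate numbers pair the samples. The replicate block gave 11 members. These were not the 11 of the main fit, since *Hspb6* (p 0.0462) came in and *Dnajb2* (p 0.0527) dropped out.

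Under voom and under equal totals the fold change of 8 members, the same genes in both, changed sign, with sizes of at most 0.0163 and 0.0146 on the log2 scale. Those given by library in the report were, with voom, *Hspb2* (0.004), *Dnajb5* (0.005), *Dnajc3* (0.007) and *Dnajc5* (0.010), and with equal totals, in that order, 0.003, 0.006, 0.007 and 0.009. The other 4 were *Dnajc13*, *Dnajc16*, *Dnajc18* and *Dnajc30*. The median of all genes moved as well, from 0.002 to 0.026 with voom and 0.025 with equal totals. A shift common to all genes turns the sign of members just below 0, so these changes tell nothing particular about the members. Under cyclic loess *Dnajc12* and *Dnajc13* changed sign, by at most 0.0234 in size. Ranges over all alternatives, including each library left out, were computed for part of the members only, and among these the log2 fold changes that changed sign ranged from -0.118 to 0.051 for *Hspb2*, from -0.226 to 0.094 for *Dnajb5*, from -0.081 to 0.052 for *Dnajc3*, from -0.048 to 0.044 for *Dnajc5*, from -0.197 to 0.009 for *Hspe1*, from -0.011 to 0.137 for *Dnajb1* and from -0.014 to 0.056 for *Dnajb6*. Without the filter the 6 members below it were fitted too, and their lowest unadjusted p was 0.0705.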
